A study of Saccharomyces cerevisiae with 15 samples.

Results

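The enzymes of the pentose phosphate pathway were followed through 3 kinds of stationary phase cells of the budding yeast Saccharomyces cerevisiae. The members were the 10 genes ZWF1, SOL3, SOL4, GND1, GND2, RKI1, RPE1, TKL1, TKL2 and TAL1, chosen by name out of the 5449 S. cerevisiae genes measured. Each was read by 1 probe set, of the kind that the array maker names as matching a single gene. The study used BY4741, a haploid laboratory strain cultured in YPD, a rich medium with 2% glucose, with shaking at 30 °C and taken at day 3, without further treatment. Cells were separated by buoyant density in Percoll. The groups are WT high density, WT low density and Rho0 low density, the last being the light cells of a BY4741 derivative without mitochondrial DNA, and each has 5 biological replicates. All groups share the BY4741 background, and the labels do not say how mitochondrial DNA was lost or whether the Rho0 cells were 1 clone.

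The pathway branches off glycolysis at glucose 6-phosphate. Its oxidative branch makes NADPH, the reducing power for biosynthesis and for antioxidant enzymes, and ends in ribulose 5-phosphate. Its non-oxidative branch interconverts sugar phosphates reversibly, giving ribose 5-phosphate for nucleotides and erythrose 4-phosphate for aromatic amino acids, or returning carbon to glycolysis. Several steps in yeast are encoded by a pair of paralogs, of which one is known as the main form in growing cells and the other as a gene of stressed or starved cells.

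Values are log2 signals after RMA, a method that brings all arrays to a common signal distribution, so that each difference is relative to the other transcripts of the sample. A difference of 1 is a 2-fold difference. All 10 genes had group means above the background level of 2.56 (the 95th percentile of probe sets for the distant yeast S. pombe) in every group, and their lowest single value was 4.69. In such bulk samples fewer cells of a kind and less RNA per cell cannot be told apart. The signal of the 5′ part of the large ribosomal RNA was between 10.74 and 11.82 in WT low density, against 7.65 to 7.97 in WT high density and 7.32 to 7.95 in Rho0 low density. Poly-A RNAs spiked into each sample had a mean signal of 10.12 ± 0.20, 10.34 ± 0.24 and 9.66 ± 0.24 for WT high density, WT low density and Rho0 low density (SD, n = 5). Actin probe sets, whose 3′ minus 5′ difference is a sign of RNA quality, gave 1.81 to 2.11 in WT low density, 1.35 to 1.74 in WT high density and 1.51 to 1.67 in Rho0 low density, so that WT low density did not overlap the others. The part of these differences in the results, the paralog differences included, was not tested. The log2 of the summed signal of 7 sporulation markers ran from 9.13 to 9.47 in WT high density, 7.40 to 7.64 in WT low density and 7.74 to 8.04 in Rho0 low density. For 4 genes of the other mating type (alpha) it ran from 10.07 to 10.84, 8.69 to 9.32 and 9.10 to 9.62, and for 6 genes of mating type a from 10.72 to 11.07, 11.94 to 12.22 and 11.06 to 11.22. Such sums follow the brightest genes, as DMC1 (8.50 in WT high density) for sporulation and SAG1 (10.27 in the same group) for mating type alpha. Of the 7 sporulation markers 0 rose and 6 fell in WT low density against WT high density (26.2% and 41.1% of all genes). In Rho0 low density 5 rose and 0 fell against WT low density (44.6% and 22.7%). Against WT high density 2 rose and 3 fell there (37.9% and 34.4%). In the same order of comparisons 0 of the 4 alpha genes rose and 4, 2 and 4 fell. Of the 6 mating type a genes 5, 2 and 4 rose and 1, 3 and 1 fell. With arrays scaled to the spiked RNAs the middle counts were 7 and 0, 2 and 0, and 2 and 2. Of these markers BAR1 (WT high density), MF(ALPHA)1 (both low density groups), SPO11 (both WT groups) and SPO19 (WT low density) were not above background, and the part of such cells in the results was not tested. None of 8 genes of mitochondrial DNA looked for is named on the array, so the Rho0 label was not checked here by them.

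In the values as deposited the oxidative branch rose stepwise from WT high density through WT low density to Rho0 low density, with SOL3 as the exception at the last step. All 5 of its genes were higher in WT low density than in WT high density, where 26.2% of all genes were called higher by limma (adjusted p under 0.05). A further rise in Rho0 low density over WT low density was seen for 4 of the 5 (44.6% of all genes). All 5 were higher in Rho0 low density than in WT high density (37.9% of all genes), by 1.97 to 2.92 log2. With arrays scaled to the spike-in RNAs the first step of ZWF1 (0.23) and GND2 (0.33) did not pass, and SOL3 rose at the second (0.63). The non-oxidative branch split. TAL1 rose at both steps and TKL1 at the first, TKL2 fell at the first and rose at the second, and RKI1 and RPE1 differed by at most 0.45 log2 in each comparison.

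**Figure D1:**
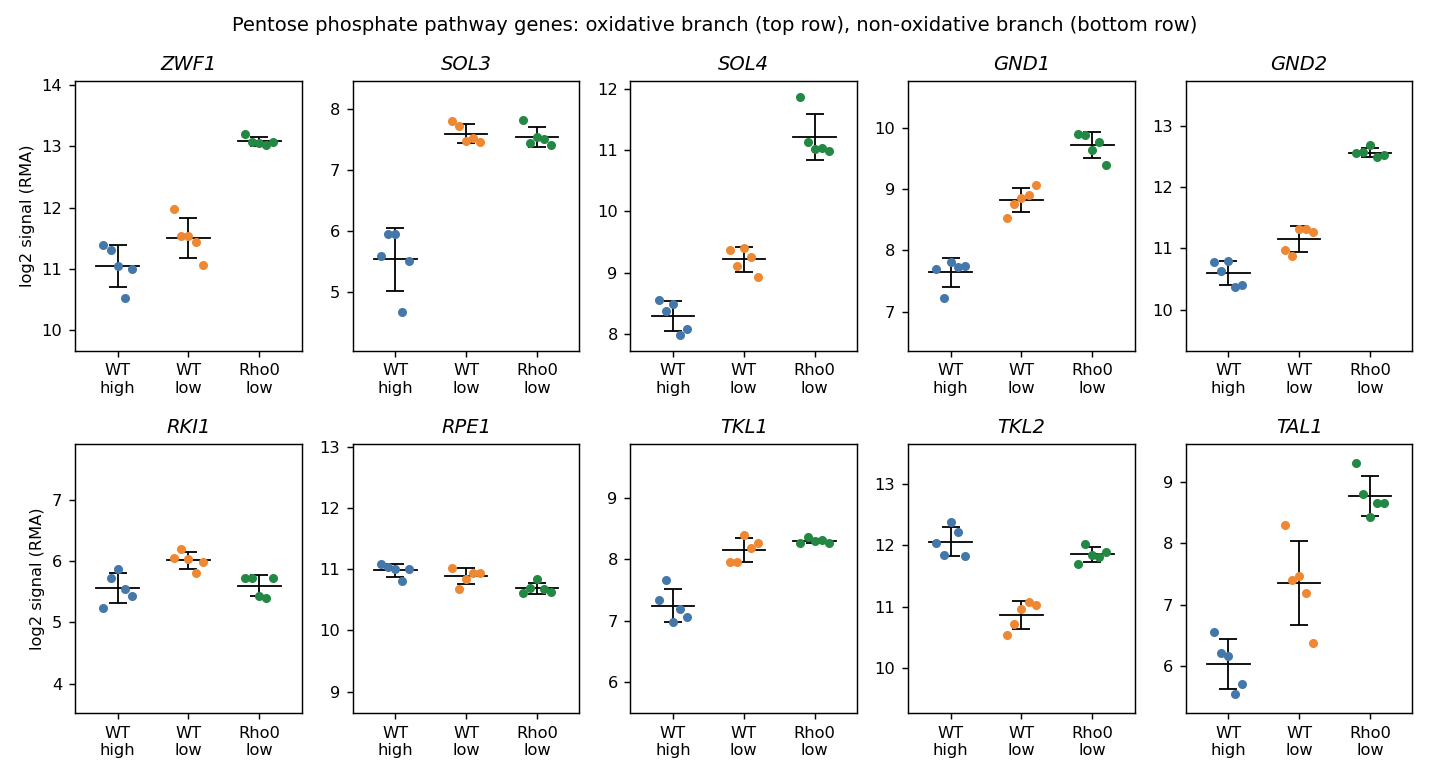
Each panel shows 1 gene, with the log2 signal on the vertical axis (every panel spans the same number of log2 units) and 1 point per array in WT high density, WT low density and Rho0 low density, each with its mean (line) and SD (bar, n = 5). ZWF1, SOL4, GND1, GND2 and TAL1 are highest in Rho0 low density, SOL3 and TKL1 are lowest in WT high density, and TKL2 is lowest in WT low density.

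ZWF1 (YNL241C) encodes glucose 6-phosphate dehydrogenase, which commits glucose 6-phosphate to the pathway and makes its first NADPH. It read 11.39, 11.31, 11.04, 10.52 and 10.99 in the WT high density replicates 1 to 5 and 11.97, 11.53, 11.53, 11.43 and 11.06 in WT low density. In Rho0 low density it read 13.21, 13.07, 13.05, 13.02 and 13.07. All Rho0 values lay above every WT value, while the WT groups overlapped. Rho0 low density exceeded WT low density 2.98-fold (1.58 ± 0.16 log2, difference ± SE, limma adjusted p = 1.16e-07) and WT high density 4.09-fold. The step between the WT groups was 0.46 ± 0.16 (adjusted p = 0.0205). That smaller step did not pass without WT high density replicate 4 (0.32, adjusted p = 0.0683), without WT low density replicate 1 (0.34, adjusted p = 0.0676), with arrays shifted to a common S. pombe median (0.38, adjusted p = 0.0548) or scaled to the spike-in RNAs (0.23, adjusted p = 0.397).

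SOL3 (YHR163W) and SOL4 (YGR248W) encode 6-phosphogluconolactonases, which hydrolyse the lactone made by Zwf1. SOL3 read 5.60, 5.95, 5.95, 4.69 and 5.51 in WT high density, 7.80, 7.72, 7.47, 7.51 and 7.46 in WT low density and 7.81, 7.43, 7.54, 7.51 and 7.40 in Rho0 low density. The 2 low density groups covered nearly the same range, and every WT high density value lay below them. WT low density was 4.15-fold above WT high density (2.05 ± 0.19 log2, adjusted p = 2.04e-08). The difference between Rho0 low density and WT low density was -0.05 ± 0.19 (95% confidence interval -0.45 to 0.34, adjusted p = 0.811), although scaling to the spike-in RNAs turned it to 0.63 (adjusted p = 0.021).

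SOL4 behaved otherwise. Its values were 8.55, 8.37, 8.48, 7.99 and 8.08 in WT high density, 9.38, 9.11, 9.41, 9.26 and 8.93 in WT low density and 11.87, 11.14, 11.02, 11.04 and 10.98 in Rho0 low density. No 2 groups overlapped. WT low density stood 1.90-fold above WT high density (0.93 ± 0.17 log2, adjusted p = 8.99e-05). From there Rho0 low density was a further 3.97-fold higher (1.99 ± 0.17, adjusted p = 7.13e-09). Over WT high density the Rho0 difference of 7.55-fold was the largest of the 10 genes in any comparison.

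GND1 (YHR183W) and GND2 (YGR256W) encode 6-phosphogluconate dehydrogenases, which make the second NADPH and release carbon dioxide, and Gnd1 is known as the main form. GND1 read 7.70, 7.23, 7.81, 7.72 and 7.74 in WT high density, 8.53, 8.76, 8.86, 8.91 and 9.06 in WT low density and 9.90, 9.89, 9.63, 9.77 and 9.39 in Rho0 low density. GND2 read 10.77, 10.64, 10.79, 10.37 and 10.40 in the first group, 10.97, 10.88, 11.32, 11.32 and 11.27 in the second and 12.55, 12.57, 12.69, 12.49 and 12.52 in the third. Neither gene had overlapping groups. GND1 was 2.27-fold higher in WT low density than in WT high density (1.18 ± 0.14, adjusted p = 5.84e-07) and 1.86-fold higher again in Rho0 low density (0.89 ± 0.14, adjusted p = 1.64e-05). For GND2 the second step was the larger, at 2.66-fold (1.41 ± 0.12, adjusted p = 1.01e-08) after 1.47-fold (0.56 ± 0.12, adjusted p = 0.000577), and with scaling to the spike-in RNAs its first step did not pass (0.33, adjusted p = 0.155). Over both steps GND1 was 4.21-fold and GND2 3.91-fold higher in Rho0 low density than in WT high density.

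RKI1 (YOR095C), for the isomerase that makes ribose 5-phosphate, and RPE1 (YJL121C), for the epimerase that makes xylulose 5-phosphate, sort the product of the oxidative branch. The RKI1 signal was lowest among the dense WT cells at 5.56 ± 0.25, beside 5.60 ± 0.17 for Rho0 low density and 6.01 ± 0.14 for WT low density (SD, n = 5). It was 0.45 ± 0.13 log2 higher in WT low density than in WT high density (adjusted p = 0.00477). It was then lower in Rho0 low density than in WT low density, by -0.42 ± 0.13 (adjusted p = 0.00873), a direction that turned with scaling to the spike-in RNAs (0.27, adjusted p = 0.263). Under that scaling the WT step did not pass (0.23, adjusted p = 0.385), and Rho0 low density passed over WT high density (0.49, adjusted p = 0.0497) where as deposited the difference was 0.04 ± 0.13 (adjusted p = 0.793).

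RPE1 varied least across the groups, with means of 10.98 ± 0.11, 10.88 ± 0.13 and 10.69 ± 0.09 in WT high density, WT low density and Rho0 low density. Neighbouring groups in that order did not pass, at -0.10 ± 0.10 (95% confidence interval -0.32 to 0.11, adjusted p = 0.395) and -0.19 ± 0.10 (-0.41 to 0.02, adjusted p = 0.108). Its fall between the outer groups, -0.29 ± 0.10 (adjusted p = 0.0158), passed although 1 value overlapped, and it turned to 0.16 (adjusted p = 0.461) with scaling to the spike-in RNAs. Scaling likewise decided the comparison of the low density groups, which was -0.46 (adjusted p = 0.0012) at a common S. cerevisiae median and 0.49 (adjusted p = 0.0199) with the spike-in RNAs.

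TKL1 (YPR074C) and TKL2 (YBR117C) encode transketolases, which move carbon units between sugar phosphates, Tkl1 being the known main form. TKL1 read 7.34, 7.66, 6.97, 7.19 and 7.06 in WT high density, 7.95, 7.96, 8.40, 8.19 and 8.27 in WT low density and 8.27, 8.36, 8.29, 8.31 and 8.27 in Rho0 low density. TKL2 read 12.04, 11.84, 12.38, 12.21 and 11.83 in the first, 10.54, 10.71, 10.96, 11.08 and 11.03 in the second and 11.70, 12.02, 11.84, 11.82 and 11.89 in the third. TKL1 was thus low only in the dense cells, and TKL2 only in the light WT cells. WT low density had 1.88-fold more TKL1 signal (0.91 ± 0.13, adjusted p = 7.11e-06) and 2.29-fold less TKL2 signal (-1.20 ± 0.13, adjusted p = 3.04e-07) than WT high density. Between Rho0 low density and WT low density TKL2 rose 1.98-fold (0.99 ± 0.13, adjusted p = 3.19e-06), while TKL1 differed by 0.15 ± 0.13 (95% confidence interval -0.13 to 0.42, adjusted p = 0.333). With scaling to the spike-in RNAs the latter was 0.83 (adjusted p = 0.000415). Against WT high density the TKL2 difference in Rho0 low density was -0.21 ± 0.13 (-0.49 to 0.07, adjusted p = 0.173), and -0.35 (adjusted p = 0.028) at a common S. cerevisiae median. Scaling to the spike-in RNAs turned it to a rise that did not pass.

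TAL1 (YLR354C) encodes transaldolase, which links the pathway back to glycolysis. It read 6.55, 6.21, 6.16, 5.54 and 5.70 in WT high density, 8.30, 7.40, 7.46, 7.20 and 6.38 in WT low density and 9.31, 8.80, 8.43, 8.66 and 8.66 in Rho0 low density. The WT groups overlapped by the lowest light and the highest dense value, and all Rho0 values lay above both. TAL1 also had the widest spread of the 10 genes within a group, with an SD of 0.69 in WT low density, where the smallest SD of any gene and group was 0.04 (TKL1 in Rho0 low density). WT low density was 2.49-fold above WT high density (1.31 ± 0.27, adjusted p = 0.0003), and Rho0 low density was 2.69-fold above WT low density (1.42 ± 0.27, adjusted p = 0.000132) and 6.68-fold above WT high density.

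**Figure D2:**
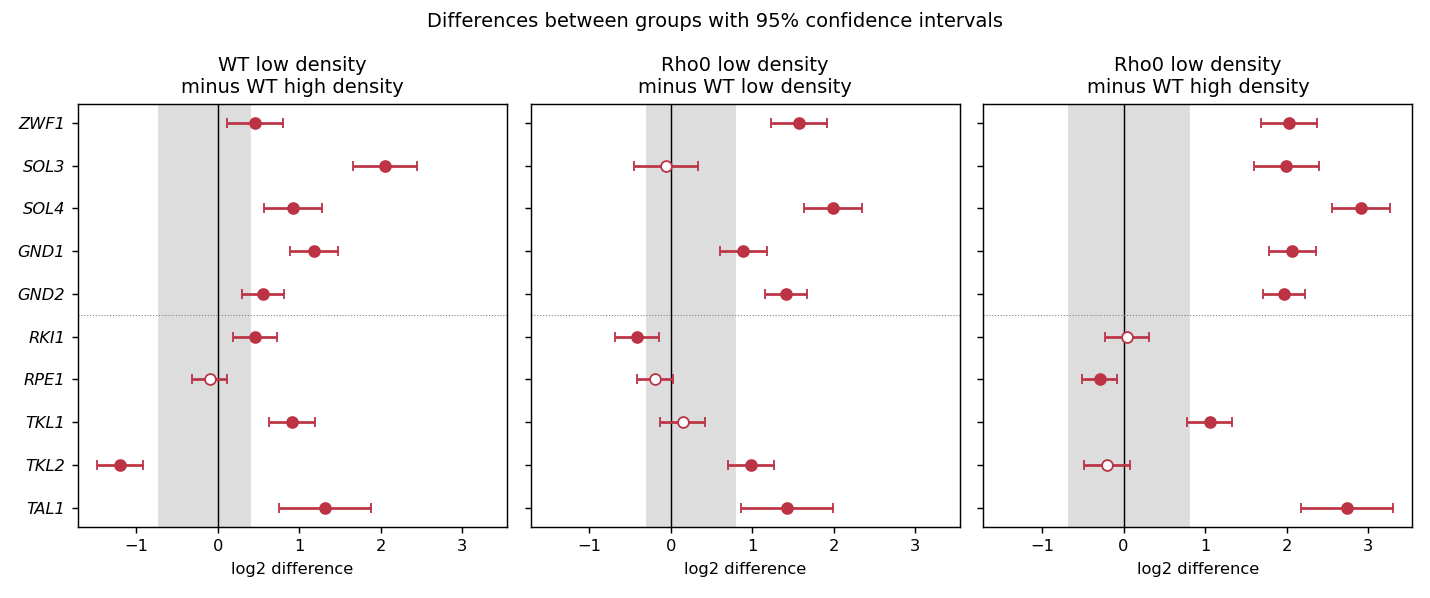
Each row is a gene and each panel a comparison, with the log2 difference on the horizontal axis as a point with its 95% confidence interval. Filled points passed an adjusted p of 0.05, and the grey band is the interquartile range of all 5449 genes. The 5 oxidative branch genes lie at 1.97 or above in the right panel, while RKI1, RPE1 and TKL2 lie near 0 there.

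Over both branches, 9 of 10 members passed between the WT groups, where 67.2% of all genes did. Of these 8 were higher (26.2% of all genes) and TKL2 was lower (41.1%). Their groups did not overlap for 6 of 10 (47.9% of all genes), 5 of them higher (19.6%) and 1 lower (28.3%). For Rho0 low density over WT low density 7 of 10 passed, close to the 67.3% of all genes, with 6 higher (44.6%) and RKI1 lower (22.7%). Those 7 did not overlap (57.2%), 6 higher (37.9%) and 1 lower (19.3%). For Rho0 low density over WT high density 8 of 10 passed, again close to the share of all genes (72.4%), with 7 higher (37.9%) and RPE1 lower (34.4%). The 7 higher ones did not overlap, while 0 were lower without overlap (58.9% of all genes in either direction, 31.4% higher and 27.5% lower). The median difference of the members in the 3 comparisons was 0.73, 0.94 and 1.98, beside -0.17, 0.25 and 0.03 for all genes. These comparisons share groups and are not independent, and 10 chosen genes are described here without a test of the list.

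The scaling of the arrays moved the median of all genes. In the first comparison it was -0.17 as deposited, 0.00 when the S. cerevisiae genes were quantile normalized by themselves and -0.40 with scaling to the spike-in RNAs, and in the second it was 0.25, 0.06 and 0.94. The split of called genes in the first comparison, 1425 higher and 2238 lower, became 1774 and 1792 and then 880 and 2462 under those scalings. In the second, 2430 higher and 1235 lower became 1875 and 1574 and then 3955 and 464, and 1728 and 1775 at a common S. cerevisiae median. In the third, 2067 and 1877 became 2727 and 1022 with the spike-in RNAs but 1811 and 2197 at a common S. cerevisiae median, where the lower calls were the more numerous. Of the members 5 were higher and 1 lower, 9 and 0, and 8 and 0 in the 3 comparisons with the spike-in RNAs, and quantile normalization gave the counts as deposited. Among differences that kept their call, the spike-in scaling raised the second step to 1.58 for GND1, 1.67 for TKL2 and 1.62 for NQM1, and the fall of RKI1 there was -0.67 after quantile normalization and -0.68 at a common S. cerevisiae median.

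Paralogs were then compared through their difference in signal within each array, which any shift of an array leaves as it is. Only its change between groups is read, since the levels of different probe sets are not comparable. NQM1 (YGR043C), a transaldolase paralog of TAL1 that is not a member, was included. Exact two-sided permutation tests were made for 4 pairs in 3 comparisons and adjusted over these 12 tests. With 5 against 5 arrays the smallest p they allow is 0.00794, which corresponds here to an adjusted p = 0.0106.

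For the transketolases TKL1 minus TKL2 was -4.70, -4.17, -5.41, -5.03 and -4.77 in WT high density, -2.59, -2.76, -2.56, -2.89 and -2.76 in WT low density and -3.43, -3.66, -3.55, -3.51 and -3.62 in Rho0 low density. The groups lay apart, with WT low density nearest to TKL1. The balance moved towards TKL1 by 2.11 log2, or 4.31-fold, in WT low density against WT high density. It moved back by -0.84 from WT low density to Rho0 low density and stayed 1.26 above WT high density there (exact permutation p = 0.00794 and adjusted p = 0.0106 in each).

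The lactonase difference SOL3 minus SOL4 was -2.95, -2.42, -2.53, -3.30 and -2.57 in WT high density, -1.58, -1.40, -1.94, -1.75 and -1.47 in WT low density and -4.06, -3.71, -3.48, -3.53 and -3.58 in Rho0 low density. Again no groups overlapped, but here Rho0 low density lay nearest to SOL4 of the 3. The balance moved towards SOL3 by 1.13 in WT low density against WT high density and towards SOL4 by -2.04, or 4.13-fold, in Rho0 low density against WT low density. Against WT high density the Rho0 change was -0.92 (exact permutation p = 0.00794 and adjusted p = 0.0106 in each).

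The dehydrogenase difference GND1 minus GND2 was highest among the light WT cells at -2.33 ± 0.16, beside -2.95 ± 0.32 for WT high density and -2.85 ± 0.22 for Rho0 low density (SD, n = 5). It changed by 0.62 between the WT groups and by -0.52 between the low density groups (exact permutation p = 0.00794, adjusted p = 0.0106 in both). Rho0 low density and WT high density differed by 0.10 in it (exact permutation p = 0.643, adjusted p = 0.643), and their values overlapped. In all 3 member pairs the difference was highest in WT low density.

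For TAL1 and NQM1, NQM1 itself averaged 8.49 ± 0.24, 9.30 ± 0.16 and 10.24 ± 0.24 in WT high density, WT low density and Rho0 low density, no groups overlapping. TAL1 minus NQM1 averaged -2.45 ± 0.22, -1.95 ± 0.60 and -1.47 ± 0.17 (mean ± SD, n = 5). The outer groups differed by 0.99 (exact permutation p = 0.00794, adjusted p = 0.0106). The single steps of 0.50 (exact permutation p = 0.127, adjusted p = 0.139) and 0.48 (exact permutation p = 0.119, adjusted p = 0.139) did not pass. Each rested on 1 array of WT low density, since the first was 0.71 without replicate 5 and the second 0.70 without replicate 1 (adjusted p = 0.019 in both), and 0.29 and 0.28 at the lowest with another array of that group left out.

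**Figure D3:**
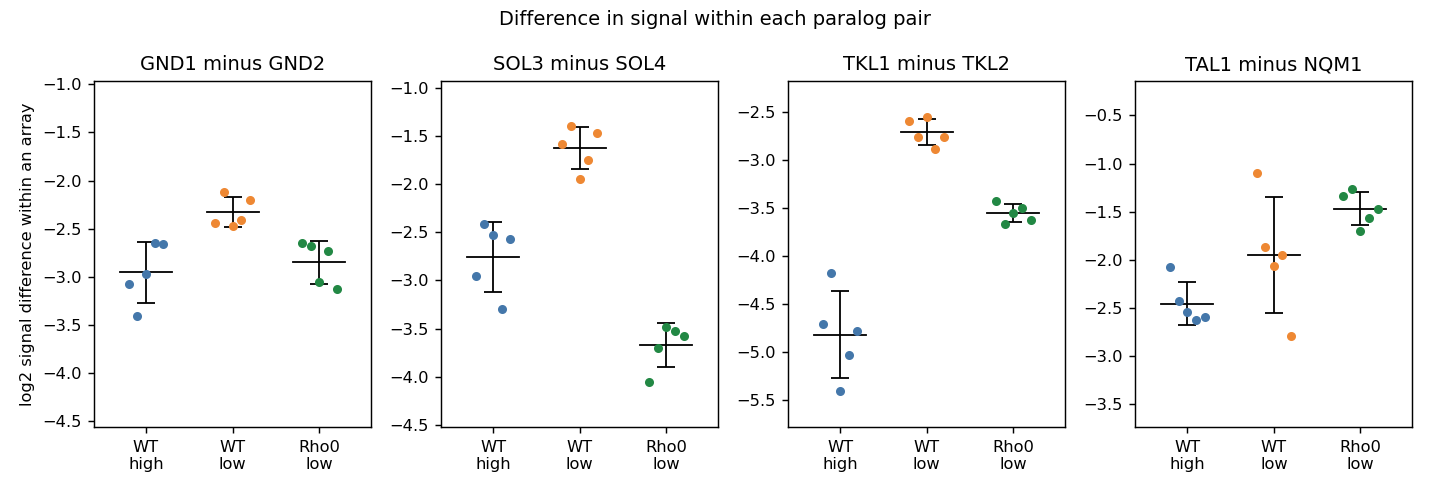
Each panel shows a paralog pair, with the difference in log2 signal within an array on the vertical axis and 1 point per array by group, with mean (line) and SD (bar, n = 5). For GND, SOL and TKL the WT low density points are the highest, and for TAL1 minus NQM1 the WT low density points spread from -2.79 to -1.10.

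The neighbouring enzymes were read from 6 lists of genes, whose counts stand beside the shares of all genes called higher and lower. Of 9 genes around the glucose 6-phosphate branch point, 6 rose and 2 fell in WT low density against WT high density (26.2% and 41.1% of all genes), with a median difference of 0.93. Between the low density groups 6 rose and 0 fell (44.6% and 22.7% of all genes), with a median of 0.30. That count was 4 and 0 after quantile normalization, 4 and 3 at a common S. cerevisiae median and 8 and 0 with the spike-in RNAs. Between Rho0 low density and WT high density 6 rose and 2 fell (37.9% and 34.4% of all genes), with a median of 1.23. The hexokinase gene HXK1 rose by 3.11 ± 0.20 in the first and 1.74 ± 0.20 in the second, where the phosphoglucomutase gene PGM2 rose by 1.63 ± 0.11. HXK1 stood 4.86 ± 0.20 and PGM2 3.31 ± 0.11 log2 higher in Rho0 low density than in WT high density, and the glucokinase relative EMI2 was 1.96 ± 0.10 higher in WT low density than in WT high density. The genes that fell, PFK1 and PFK2, encode the subunits of phosphofructokinase, the enzyme that takes hexose phosphates down glycolysis instead. They stood at -0.93 ± 0.19 and -1.61 ± 0.11 in WT low density and at -1.22 ± 0.19 and -1.74 ± 0.11 in Rho0 low density, both against WT high density, and were chosen after their values were seen (PFK1 in Rho0 low density was at -0.77 with the spike-in RNAs). PGI1, for the isomerase between the routes, differed by 0.18 ± 0.11, -0.15 ± 0.11 and 0.04 ± 0.11 in the 3 comparisons (adjusted p = 0.16, 0.265 and 0.772). Its direction depended on the scaling, since the second of these was -0.41 (adjusted p = 0.0039) at a common S. cerevisiae median and 0.54 (adjusted p = 0.0174) with the spike-in RNAs. At that median the first was 0.31 (adjusted p = 0.0236) and the third -0.10 (adjusted p = 0.419), and with the spike-in RNAs they were -0.05 (adjusted p = 0.856) and 0.49 (adjusted p = 0.0334).

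Of 11 side enzymes of the pathway, 5 rose and 2 fell between the WT groups (26.2% and 41.1% of all genes), with a median difference of -0.14, and 5 rose and 4 fell at a common S. pombe median. Between the low density groups 8 rose and 1 fell (44.6% and 22.7% of all genes), with a median of 0.84, and 10 rose and 0 fell with the spike-in RNAs. Between Rho0 low density and WT high density 9 rose and 1 fell (37.9% and 34.4% of all genes), with a median of 1.002. SOL1, a relative of the lactonase genes linked to tRNA export, was 1.50 ± 0.15 higher in WT low density than in WT high density, and the xylitol dehydrogenase gene XYL2 was 1.40 ± 0.10 log2 lower. XYL2 then rose by 1.74 ± 0.10 and the xylulokinase gene XKS1 by 1.92 ± 0.15 in Rho0 low density against WT low density. XKS1 (2.96 ± 0.15) and the aldose reductase gene GRE3 (3.02 ± 0.17) had the largest differences in Rho0 low density against WT high density.

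Of 7 other NADPH sources and NAD(H) kinases, 2 rose and 0 fell in the first comparison (26.2% and 41.1% of all genes), and 1 and 1 with the spike-in RNAs. In the second 2 rose and 2 fell (44.6% and 22.7% of all genes), against 5 and 1 with the spike-in RNAs and 1 and 3 at a common S. cerevisiae median. In the third 2 rose and 1 fell (37.9% and 34.4% of all genes), against 2 and 3 at that median. The list's median differences were 0.11, 0.08 and -0.06. ALD6, the cytosolic aldehyde dehydrogenase that makes NADPH, rose at both steps, by 1.12 ± 0.13 and 1.39 ± 0.13. IDP1, the mitochondrial NADP-dependent isocitrate dehydrogenase, rose by 0.44 ± 0.13 at the first, a call lost with the spike-in RNAs (0.21, adjusted p = 0.388). IDP3, its peroxisomal form, fell by 2.51 ± 0.24 log2 in Rho0 low density against WT low density. Between the outer groups IDP3 fell by 2.96 ± 0.24 log2 and ALD6 rose by 2.52 ± 0.13.

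Of 7 NADPH-using reductases, 4 rose and 2 fell in the first comparison (26.2% and 41.1% of all genes). In the second 3 rose and 2 fell (44.6% and 22.7% of all genes), against 2 and 2 at a common S. cerevisiae median and 5 and 0 with the spike-in RNAs. In the third 5 rose and 2 fell (37.9% and 34.4% of all genes). The list's median differences were 2.01, 0.21 and 2.33. OYE2, for an NADPH dehydrogenase, rose by 3.09 ± 0.15 in WT low density over WT high density and was 0.74 ± 0.15 log2 lower in Rho0 low density than in WT low density, a call lost with the spike-in RNAs (-0.05, adjusted p = 0.836). The glutathione reductase gene GLR1 rose by 2.58 ± 0.11 at the first step and 0.97 ± 0.11 at the second (1.65 with the spike-in RNAs). It stood 3.55 ± 0.11 above WT high density in Rho0 low density, and the NADPH-dependent alcohol dehydrogenase gene ADH6 stood 2.56 ± 0.13 above it.

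Of 7 genes that use the pathway's ribose 5-phosphate and erythrose 4-phosphate, 3 rose and 2 fell between the WT groups (26.2% and 41.1% of all genes), and 1 and 2 with the spike-in RNAs. In Rho0 low density 0 rose and 4 fell against WT low density (44.6% and 22.7% of all genes), and 2 and 1 with the spike-in RNAs. Against WT high density 0 rose and 5 fell (37.9% and 34.4% of all genes), and 1 and 0 with the spike-in RNAs. The list's median differences were -0.03, -0.45 and -0.40 in the 3 comparisons. ARO3, which condenses erythrose 4-phosphate into the aromatic amino acid route, was 1.30 ± 0.25 higher in WT low density than in WT high density and 2.24 ± 0.25 log2 lower in Rho0 low density than in WT low density. Over both steps ARO3 fell by 0.94 ± 0.25 log2, a call lost with the spike-in RNAs (-0.49, adjusted p = 0.152). PRS1, for a phosphoribosyl pyrophosphate synthetase, fell by 0.64 ± 0.11 log2 at that second step, a direction that turned with the spike-in RNAs (0.04, adjusted p = 0.846). PRS3 and PRS2 are of the same family. PRS3 fell by 0.75 ± 0.10 log2 in WT low density against WT high density, and PRS2 by 0.81 ± 0.12 log2 in Rho0 low density against WT high density, the latter call being lost with the spike-in RNAs (-0.36, adjusted p = 0.096).

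Among 5 regulators 1 rose and 3 fell in each comparison, beside 26.2% and 41.1%, 44.6% and 22.7%, and 37.9% and 34.4% of all genes. With the spike-in RNAs the counts were 0 and 3, 2 and 1, and 2 and 2. The first was 2 and 2 after quantile normalization and the second 1 and 1 at a common S. pombe median. The list's median differences were -0.54, -0.33 and -0.91. YAP1, the oxidative stress activator, fell by 1.91 ± 0.17 log2 between the WT groups and rose by 2.06 ± 0.17 from WT low density to Rho0 low density. Both sizes rest on its mean of 2.91 in WT low density, near the background level of 2.56. STB5, an activator of pentose phosphate pathway genes, differed by 0.44 ± 0.21 (adjusted p = 0.0684), 0.28 ± 0.21 (adjusted p = 0.249) and 0.72 ± 0.21 (adjusted p = 0.00459) in the 3 comparisons, and is given for its role, after its values were seen. The first of these passed after quantile normalization (0.63, adjusted p = 0.0113) and at a common S. cerevisiae median (0.56, adjusted p = 0.0207). The second was -0.03 (adjusted p = 0.916) after quantile normalization and 0.96 (adjusted p = 0.00345) with the spike-in RNAs, which put the third at 1.17. SKN7, another oxidative stress factor gene, fell by 1.62 ± 0.23 log2 in Rho0 low density against WT low density (-0.93 with the spike-in RNAs). The general stress factor gene MSN4 fell by 0.87 ± 0.11 log2 in WT low density and by 1.20 ± 0.11 log2 in Rho0 low density, both against WT high density, and its partner MSN2 fell by 1.02 ± 0.17 log2 in the latter. MSN4 was at -0.46 in the first of these after quantile normalization, and in the second MSN4 was at -0.75 and MSN2 at -0.57 with the spike-in RNAs, with adjusted p under 0.05 in each. As for YAP1, the sizes of the MSN4 falls rest on means near the background level of 2.56. These were 2.96 (WT low density) and 2.635 (Rho0 low density).

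**Figure D4:**
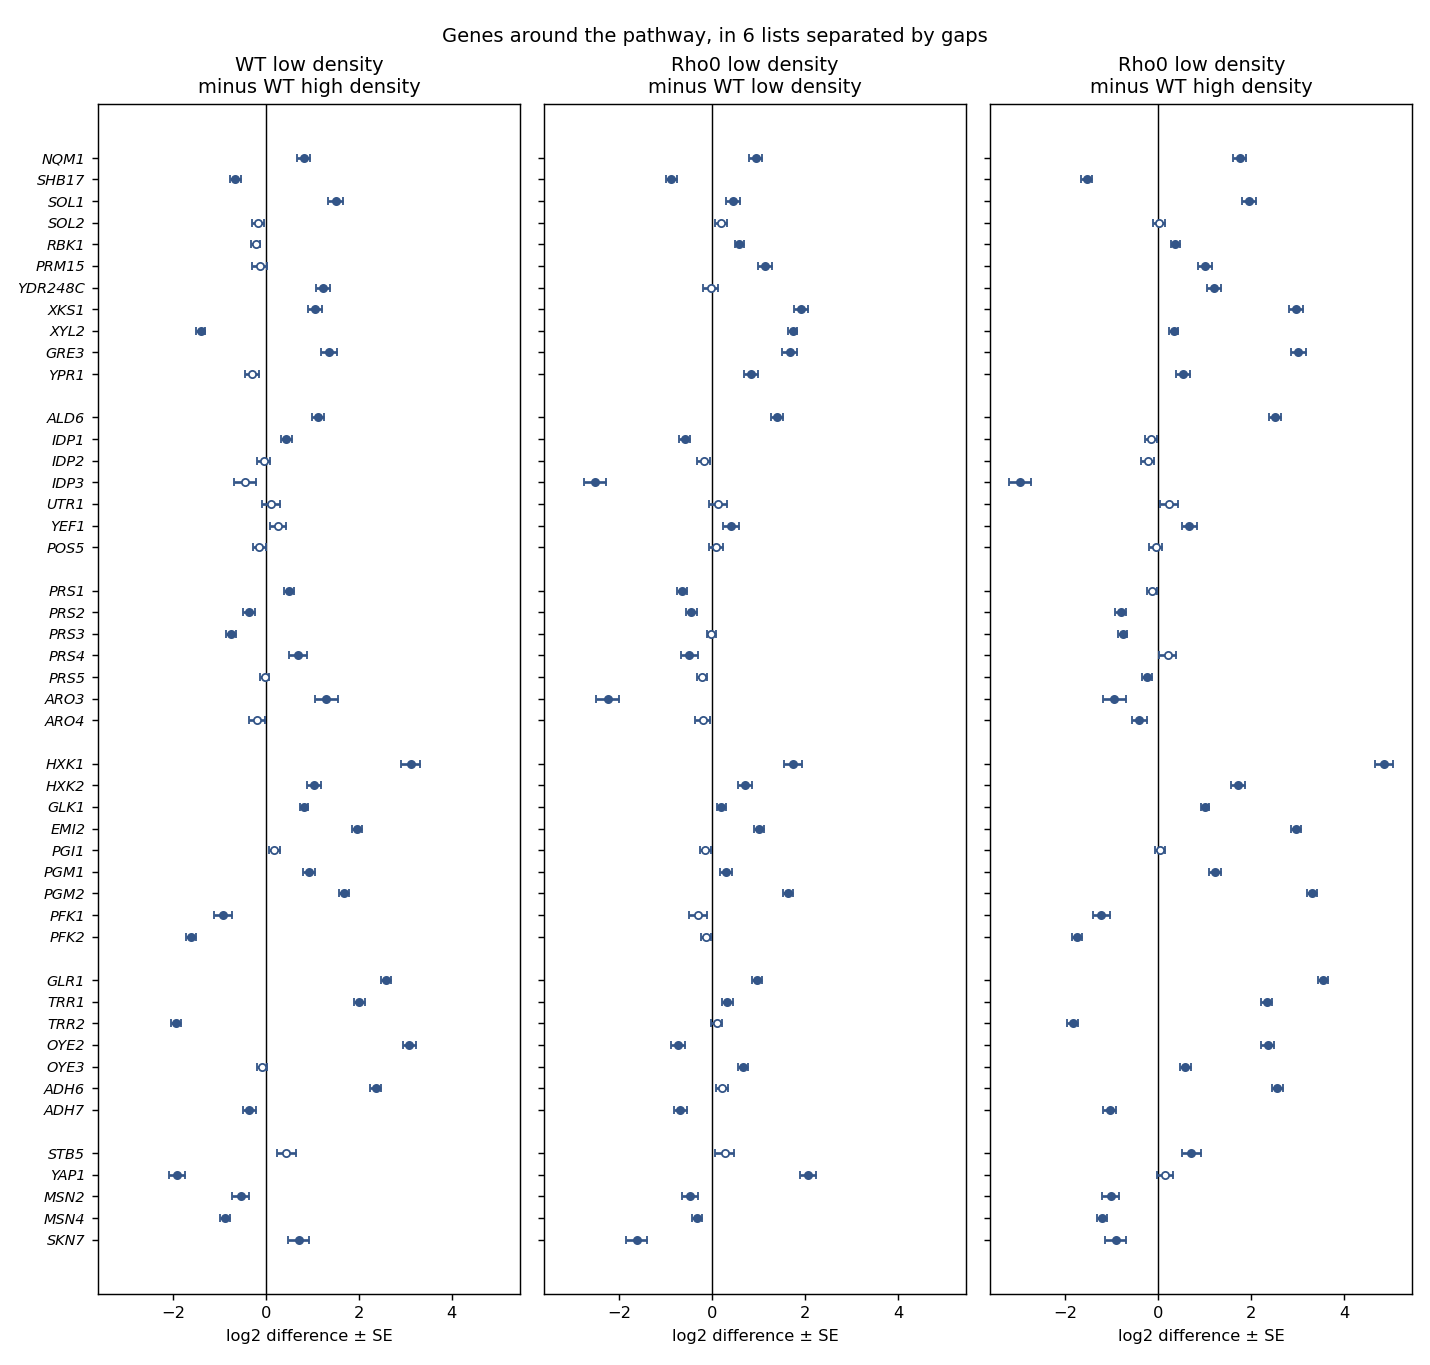
Each row is a gene of the lists around the pathway and each panel a comparison, with the log2 difference and its SE on the horizontal axis and filled points where the adjusted p was under 0.05. From the top the lists are side enzymes, other NADPH sources and NAD(H) kinases, users of ribose 5-phosphate and erythrose 4-phosphate, the glucose 6-phosphate branch point, NADPH-using reductases and regulators. HXK1, PGM2, GLR1, GRE3, EMI2 and XKS1 lie near 3 or above in the right panel and IDP3 near -3.

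Likeness of pattern was described by Pearson's r over the 15 arrays, with no test, since the 3 groups alone give high values. Among the members ZWF1, SOL4 and GND2 were closest, with r of 0.97 for SOL4 and ZWF1, 0.97 for SOL4 and GND2 and 0.95 for GND2 and ZWF1. TAL1 had 0.95 with both SOL4 and ZWF1. SOL3 was nearest to TKL1 (0.88), both being low in WT high density alone. TKL2 had -0.62 with SOL3 and -0.71 with RKI1 and lay between -0.47 and 0.11 with the remaining members. The closest genes were sought among those with a standard name and a mean above background in any group. These were MRPL4 and GAS5 for ZWF1 (both 0.99), EHT1 and RPS2 for SOL3 (both 0.98) and AHA1 and CRH1 for SOL4 (both 0.99). They were APE1 (0.99) and RFS1 (0.98) for GND1 and CKB1 and HER1 for GND2 (both 0.99). In the non-oxidative branch they were HXT4 and CIS3 for TKL1 (both 0.96), THI13 and KOG1 for TKL2 (both 0.98), and SDS24 (0.99) and PRY3 (0.98) for TAL1. For RKI1 and RPE1 the highest were EFM6 and RPN4 (both 0.85), and MAE1 (0.90) and ASP1 (0.89).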

How the data were processed

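RNA of 15 samples, 1 array each, was measured on Affymetrix Yeast Genome 2.0 arrays. Per the labels' protocols, TRIzol extraction, DNase and a column gave the total RNA, of which 100 ng was labelled with biotin. The deposited values are log2 signals made by the authors with RMA in Affymetrix Expression Console, per the submitters' processing notes, whose versions are not given in the sources used here. The table holds 10928 probe sets, 0 columns were left unused, and array number, not depth, limits the precision.

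Of 7244 probe sets with 1 named gene, 5498 matched the S. cerevisiae reference table by gene ID and 1746 were taken as S. pombe. The probe set with the highest mean stood for a gene (5449 genes). The array's gene models and a genome build are not given, so no coordinates are printed. Group means were fitted to all 15 arrays with lmFit and eBayes in limma 3.58.1 (R 4.3.3), with p adjusted by Benjamini and Hochberg over 5449 genes and called under 0.05. Paralog differences were tested by exact permutation (scipy 1.17.1). The limma step was tested on simulated data.

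The members and lists were chosen with earlier results of these data known. Named genes are all members, NQM1, up to 2 called genes per list and comparison with the largest change, and the genes most like each member. PFK1, PFK2, PGI1 and STB5 were added after their values were seen. The labels name biological replicates without saying whether these are separate cultures, so p-values measure the spread between the samples. The list name PGM3 was read as PRM15. The labels tie no replicate number to a shared culture, so the fit has no block. Deviations from the group means were correlated over 0.1 in 8 of 15 same-numbered pairs of arrays. Their r ran from -0.05 to 0.37, and from 0.04 to 0.37 between the WT groups, where different numbers gave -0.47 to 0.35. An effect shared by equal replicate numbers was not itself tested, though a replicate block was fitted as an alternative. Alternatives were a fit of 10 arrays, a replicate block, eBayes with trend and robust, genes above background only, 4 scalings, the mean of a gene's probe sets, array weights and each array left out. The members and NQM1 have 1 probe set each, so the mean of probe sets could not change their differences. The fit of 10 arrays, the replicate block, eBayes with trend and robust and the genes above background could not either, and altered only their p. Leaving out an array of the group not compared also leaves a difference as it is, and these cases are in the counts of results kept.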

Additional observations from a re-analysis of the deposited data

Results flagged for a closer look

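In 4 of 33 groups of 5 arrays (11 genes, 3 groups) 1 array lay far from the others, by a gap to its neighbour of more than 0.71 of the group's range, which chance alone gives in about 1 in 20 groups. In Rho0 low density replicate 1 was the high one for ZWF1 (13.21, the next being 13.07), for SOL4 (11.87, the next being 11.14) and for NQM1 (10.65, the next being 10.22). Without it, Rho0 low density exceeded WT low density by 1.55 for ZWF1, 1.83 for SOL4 and 0.84 for NQM1 (limma adjusted p at most 2.76e-05). In WT high density GND1 was lowest in replicate 2 (7.23, the next being 7.70), and without it the step to WT low density was 1.08 (adjusted p = 1.38e-06).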

How the results depend on the processing

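The replicate block changed no member's call and gave 9, 7 and 8 of 10 members called in the first (between the WT groups), second (between the low density groups) and last comparison (between the outer groups), as without it, and 3776, 3769 and 4047 of all genes. Scaling to the spike-in RNAs was the alternative that moved most. With it 880 of all genes were higher in the first comparison, 3955 were higher and 464 lower in the second and 1022 were lower in the last. It also turned SOL3 (0.63), RKI1 (0.27) and RPE1 (0.49) in the second comparison and RPE1 (0.16) in the last. There it also turned TKL2, which passed neither as deposited nor with this scaling. The cause was not tested. With 1 array left out, the members called were 8 to 9, 7 and 8, and TAL1 minus NQM1 ran from 0.29 to 0.71 in the first comparison and from 0.28 to 0.70 in the second. The other paralog calls were the same with each array left out and after quantile normalization. Groups that do not overlap stay apart when an array is left out, so calls at the smallest p could not be lost that way. Of the changes of single genes, NQM1 included, 318 of 330 results under alternatives other than leaving out an array kept their call, as did 493 of 495 with an array left out. The calls that changed among the 330 all came with a scaling, most of them with the spike-in RNAs. Several of the other alternatives could not change a difference, so the pooled count says little about scaling. A turn of direction was counted only where either fit passed, so some of these turned without passing. RKI1, for one, ran from -0.04 to 0.12 between Rho0 low density and WT high density with an array left out.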

Other observations

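By the order of genes in the RefSeq reference table, SOL3 and GND1 lie on chromosome VIII with 20 protein-coding genes between them, and their paralogs SOL4 and GND2 on chromosome VII with 7 between them. MPC2, for a subunit of the mitochondrial pyruvate carrier, is the direct neighbour of SOL3, and its relative MPC3 is separated from SOL4 by 4 genes. MPC2 was 3.88 ± 0.11 log2 higher in WT low density than in WT high density, and a further 1.22 ± 0.11 higher in Rho0 low density, where SOL3 differed by -0.05 ± 0.19. DNA2, on the other side of SOL3, was at -0.74 ± 0.17 and 1.26 ± 0.17 in the same comparisons. ILV5, next to TAL1, fell by 2.01 ± 0.31 log2 between the WT groups, where TAL1 rose. These neighbours were chosen after their values were seen.

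The paralogs SOL4, GND2, TKL2 and NQM1 moved in both directions. In WT low density against WT high density SOL4 (0.93), GND2 (0.56) and NQM1 (0.81) rose while TKL2 fell (-1.20), and in Rho0 low density against WT low density these 4 genes rose, by 0.94 to 1.99. Replicate 1 had the highest value of its group for both ZWF1 and TAL1 in all 3 groups.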
